A study of Mus musculus with 6 samples.

Results

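The cornified envelope genes studied here are those of the late (Lce1, Lce6) and small proline-rich (Sprr1, Sprr3, Sprr4) families, the S100-fused proteins, the transglutaminases and a fixed set of associated proteins. The Sprr2 and Lce3 families were left aside. Genes were chosen by symbol, under a rule set with earlier results of these data known. For each gene the brightest probe set listed with that symbol only was taken, which gave 43 genes of 19938. None of the 43 had more than 1 such probe set. Flg, the filaggrin gene, was not found under the rule and was not analysed here, and no listed symbol began with Lce2.

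Expression was measured in FITC-treated ear skin (ear pinna) of 6 mice aged 10 to 12 weeks, with 1 mouse and 1 ear per Affymetrix array. Of these, 3 mice had the genotype CLEC4C-DTR/+ and 3 were littermate controls without the transgene. In the transgene, expression of the receptor for diphtheria toxin is driven by CLEC4C, which in humans marks plasmacytoid dendritic cells, and toxin kills cells that carry the receptor. All 6 mice, controls included, were given 200 ng of diphtheria toxin on days -1, 1, 3 and 5. All were painted with 100 µL of 0.5% FITC (fluorescein isothiocyanate, a skin sensitiser) in acetone and dibutyl phthalate on the abdomen on days 0 and 2. The right ear received 20 µL of the same solution on day 6. Solvent-treated ears and mice without toxin were not analysed here, so the part of the transgene itself and that of toxin acting on cells that carry it cannot be told apart, and the change from unchallenged skin was not measured. RNA came from whole skin, and how long after ear treatment it was taken is not stated in the labels. Array medians lay between 6.17 and 6.23 on the log2 scale, and 3 mice a group limit the precision.

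The cornified envelope is the protein shell that replaces the plasma membrane of a dying keratinocyte at the skin surface. Transglutaminases crosslink precursors such as loricrin, involucrin, small proline-rich and late cornified envelope proteins onto a scaffold of envoplakin, periplakin and other proteins beneath the membrane. Many of the precursor genes lie side by side in a gene cluster called the epidermal differentiation complex. In inflamed or wounded epidermis, small proline-rich proteins are known as alternative precursors that are made in larger amounts.

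Values are log2 signals made by RMA, and a difference is CLEC4C-DTR minus littermate control on that scale. A gene was said to rise or fall where limma gave an adjusted p at or under 0.05 (Benjamini-Hochberg over all 19938 genes). In CLEC4C-DTR skin 5 of the 43 genes rose (11.6%), namely Sprr1a, Sprr1b, Cnfn, Tgm1 and Tgm2, against 5.01% of all genes. Scel alone fell (2.3%, against 4.31% of all genes), and 37 did not pass. In either direction 6 of the 43 were called, against 9.32% of all genes. The 43 genes were bright, with a median level percentile of 80.6 (50 over all genes). Tested among genes above the median level only, 5 of the 33 members there rose, against 1062 of 9969 genes. In that fit 1 of the 33 fell, against 835 of 9969. An unadjusted p under 0.05 was met by 9 of the 43, against 27.3% of all genes. A rise of at least 2-fold was met by 4 of the 43 genes, against 1.67% of all genes. A fall of that size was met by 0 of the 43, against 0.376%. The median difference of the 43 genes was -0.0013, close to that of all genes (-0.04). The rises were in 2 of the 7 transglutaminases, 2 of the 4 small proline-rich genes and Cnfn. No call was made for loricrin, involucrin or any Lce1 gene. Over all genes 998 rose and 860 fell, and with each array centred on its median 1150 rose and 644 fell, the calls among the 43 genes staying the same. When probe sets that the annotation does not list were tested too, Cnfn and Sprr1a still passed, whereas Tgm1, Tgm2, Sprr1b and Scel had limma adjusted p of 0.0583, 0.0656, 0.0771 and 0.0973. None of the 6 passed when variances were not moderated across genes, with 6 of the 43 at an unadjusted p under 0.05. These losses were not particular to the 43 genes. Over the whole array 98 of 32084 passed with the unlisted probe sets added, and 0 of 19938 with variances not moderated.

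**Figure D1:**
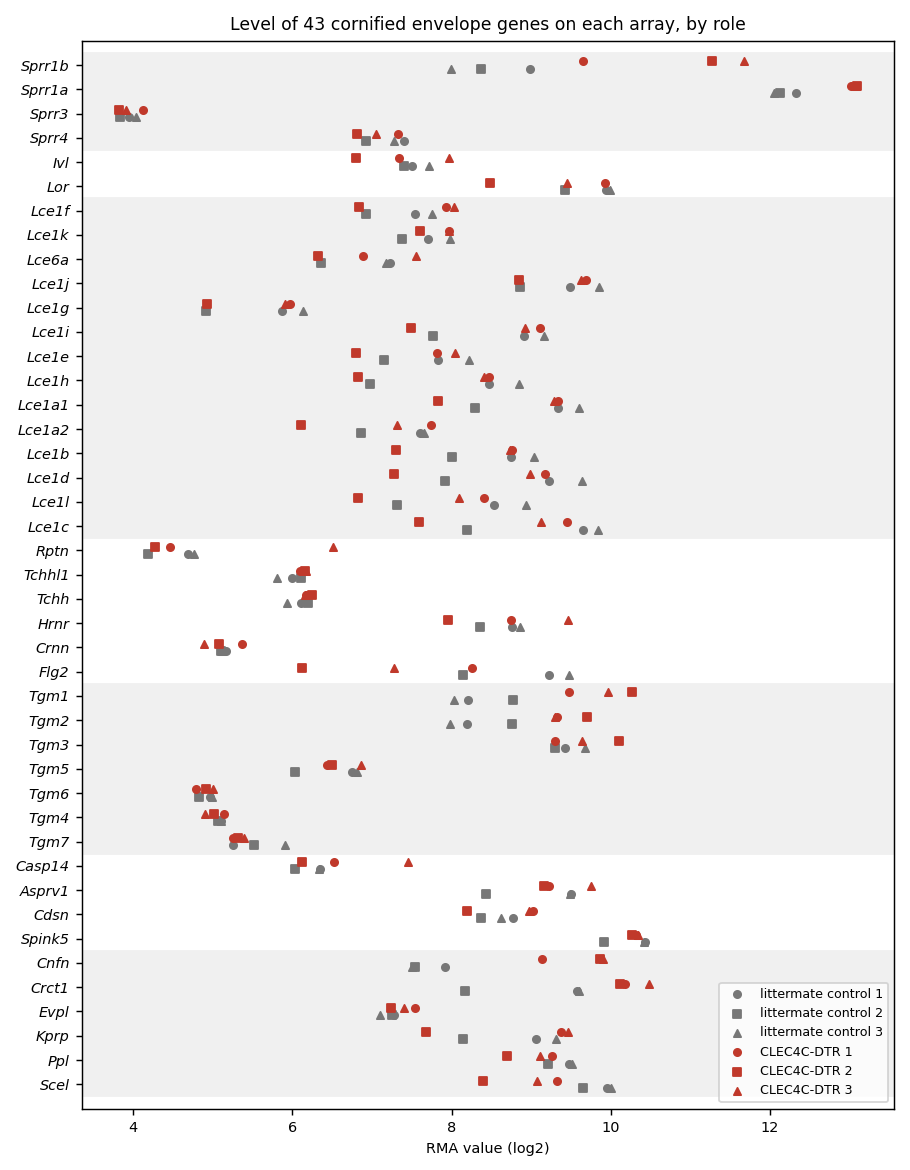
RMA values (log2, x axis) of the 43 cornified envelope genes on each of the 6 arrays, grouped by role in alternating bands. Grey symbols are littermate controls and red symbols CLEC4C-DTR mice, with the symbol shape giving the replicate. Red symbols lie wholly to the right of grey ones for Sprr1a, Sprr1b, Cnfn, Tgm1, Tgm2 and Crct1, and wholly to the left for Scel.

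Promoters are shown for the genes that rose or fell and have 1 promoter in the table used, and for loricrin, a main envelope precursor that was not called. Each runs from 250 bases before to 50 bases after the annotated RNA start, from RefSeq on build GRCm38.p6, read 5′ to 3′ on the gene's strand. Capitals mark the letters TGANTCA, where N is any base, searched on both strands. They are a loose form of the binding motif of AP-1, the transcription factor family of Fos and Jun proteins. The regions are chr3:92485832-92486131 (minus strand) for Sprr1a, chr3:92438730-92439029 (minus) for Sprr1b, chr7:25369675-25369974 (minus) for Cnfn, chr14:103513091-103513390 (plus) for Scel and chr3:92083093-92083392 (minus) for Lor.
Sprr1a: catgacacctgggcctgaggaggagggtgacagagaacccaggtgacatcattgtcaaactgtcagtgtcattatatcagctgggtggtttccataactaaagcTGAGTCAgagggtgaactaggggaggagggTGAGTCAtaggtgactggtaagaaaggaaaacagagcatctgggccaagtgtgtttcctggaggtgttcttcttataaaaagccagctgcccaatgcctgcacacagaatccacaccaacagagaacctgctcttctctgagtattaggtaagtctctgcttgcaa
Sprr1b: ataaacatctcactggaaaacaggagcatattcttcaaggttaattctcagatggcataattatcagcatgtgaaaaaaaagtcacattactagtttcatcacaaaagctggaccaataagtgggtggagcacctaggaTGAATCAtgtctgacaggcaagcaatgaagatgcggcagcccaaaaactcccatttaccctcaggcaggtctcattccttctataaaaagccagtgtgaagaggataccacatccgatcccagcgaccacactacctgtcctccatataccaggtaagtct
Cnfn: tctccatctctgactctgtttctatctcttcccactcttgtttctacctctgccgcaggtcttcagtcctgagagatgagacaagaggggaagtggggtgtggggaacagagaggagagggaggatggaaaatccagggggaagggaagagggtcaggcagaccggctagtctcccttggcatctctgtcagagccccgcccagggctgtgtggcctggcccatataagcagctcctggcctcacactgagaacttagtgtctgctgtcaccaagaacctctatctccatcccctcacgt
Scel: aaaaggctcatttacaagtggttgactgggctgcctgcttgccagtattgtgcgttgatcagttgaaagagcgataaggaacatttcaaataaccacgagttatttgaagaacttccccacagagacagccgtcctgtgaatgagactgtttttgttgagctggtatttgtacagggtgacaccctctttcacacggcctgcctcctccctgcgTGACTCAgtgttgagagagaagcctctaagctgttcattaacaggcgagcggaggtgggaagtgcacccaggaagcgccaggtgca
Lor: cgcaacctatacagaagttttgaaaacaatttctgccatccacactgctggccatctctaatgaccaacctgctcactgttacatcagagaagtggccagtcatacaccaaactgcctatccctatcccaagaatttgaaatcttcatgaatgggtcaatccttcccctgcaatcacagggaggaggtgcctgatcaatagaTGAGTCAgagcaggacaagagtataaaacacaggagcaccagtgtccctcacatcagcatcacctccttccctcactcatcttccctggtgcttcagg

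The Sprr1a promoter held 2 matches, beginning at bases -146 and -116 from the start, both TGAGTCA. The Sprr1b promoter held 1, TGAATCA, at -111. Scel, which fell, had a match at -36, and Lor had one at -48. Cnfn and Tgm1 (2 promoters in the table) had none, and Tgm2 was not in the table. Of the 36 genes with a promoter in the table, 9 (25.0%) had at least 1 match, against 9.0% of all 27025 genes and 11.8% of the 791 genes that rose over the whole array and have a promoter there. The other members with a match were Ivl (-116), Flg2 (-69), Crnn (-96), Rptn (-96) and Tchhl1 (-87), none of which was called. Of the 12 Lce1 genes in the table, 0 had one. The letters CACCC, the core recognised by KLF factors, were searched on both strands as well and were found in 24 of the 36 (66.7%), against 59.8% of all genes. A match describes letters in this window, and binding was not measured.

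Sprr1a and Sprr1b, small proline-rich precursors that are crosslinked into the envelope, both rose. Sprr1b lay at 9.65, 11.27 and 11.68 in CLEC4C-DTR replicates 1, 2 and 3 and at 8.99, 8.37 and 7.997 in the controls. Its groups did not overlap, and CLEC4C-DTR replicate 1 was the nearest to the controls. The gene was 5.34-fold higher (log2 2.42, SE 0.49, limma adjusted p = 0.0265), the largest change among the 43 genes. Sprr1a lay at 13.02, 13.10 and 13.08 against 12.33, 12.13 and 12.05. The 3 CLEC4C-DTR values were close together and all above the controls, and the gene was 1.86-fold higher (log2 0.90, SE 0.09, limma adjusted p = 0.00937). Sprr3, a small proline-rich protein best known from the oral and oesophageal lining, was dim at 3.82 to 4.12 over all 6 arrays, with a difference of 0.02 (95% interval -0.22 to 0.25, with overlap of the groups). Sprr4 differed by -0.13 (95% interval -0.51 to 0.25), and its groups overlapped.
Sprr1a passed with each array left out in turn. Sprr1b passed without CLEC4C-DTR replicate 1. It did not pass without CLEC4C-DTR replicates 2 or 3 (adjusted p = 0.0798 and 0.0809) or without littermate control replicates 1, 2 or 3 (0.0635, 0.0613 and 0.112), with differences of 2.01 to 2.68 in those limma fits.

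Of the 7 transglutaminase genes, Tgm1 and Tgm2 rose and 5 did not pass. Tgm1, the membrane-bound enzyme of keratinocytes that attaches precursors to the envelope, lay at 9.48, 10.26 and 9.97 in CLEC4C-DTR replicates 1 to 3 and at 8.20, 8.77 and 8.03 in the controls. All 3 CLEC4C-DTR values were higher than all 3 control values, and the difference was 2.97-fold (log2 1.57, SE 0.24, limma adjusted p = 0.0146). Tgm2, tissue transglutaminase, is made by many cell types, among them endothelium and macrophages. It lay at 9.33, 9.70 and 9.30 against 8.19, 8.76 and 7.98, again without overlap, and was 2.19-fold higher (log2 1.13, SE 0.20, limma adjusted p = 0.0193).
In both genes replicate 2 was the highest of its group, in transgenic mice and in controls alike. Of 8 leukocyte markers 6 rose, and the mean of the 8 was 9.52, 9.99 and 9.93 in CLEC4C-DTR replicates 1 to 3. In the controls it was 8.83, 8.99 and 8.59. Lyz2 alone of the 8 had a difference below 0 (-0.21, limma adjusted p = 0.139). Of 5 endothelial markers only Pecam1 rose (by 0.40). Left out singly, CLEC4C-DTR replicate 3 reduced the leukocyte rises to 1, littermate control replicates 1 or 3 to 3 and CLEC4C-DTR replicate 2 to 4. The part of leukocytes in the Tgm2 result was not tested. In whole skin, more cells of a type and more RNA per cell cannot be told apart.
Tgm1 did not pass with CLEC4C-DTR replicate 3, control 1 or control 3 left out (limma adjusted p = 0.0601, 0.0574 and 0.0724). The same 3 fits lost Tgm2 (0.0632, 0.0682 and 0.0807), as did that without CLEC4C-DTR replicate 2 (0.0587).

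Tgm3, the soluble epidermal transglutaminase that also hardens the hair follicle's inner sheath, lay at 9.31, 10.10 and 9.64 against 9.43, 9.30 and 9.68. The groups overlapped and the difference was 0.21 (95% interval -0.23 to 0.66). Tgm5, a further epidermal enzyme, differed by 0.07 (95% interval -0.42 to 0.56). Tgm4, the prostate enzyme, Tgm6 and Tgm7 had values of 4.79 to 5.90 on all arrays, with differences of -0.07, -0.03 and -0.24. The intervals of Tgm3 and Tgm5 leave out a 2-fold change in either direction.

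**Figure D2:**
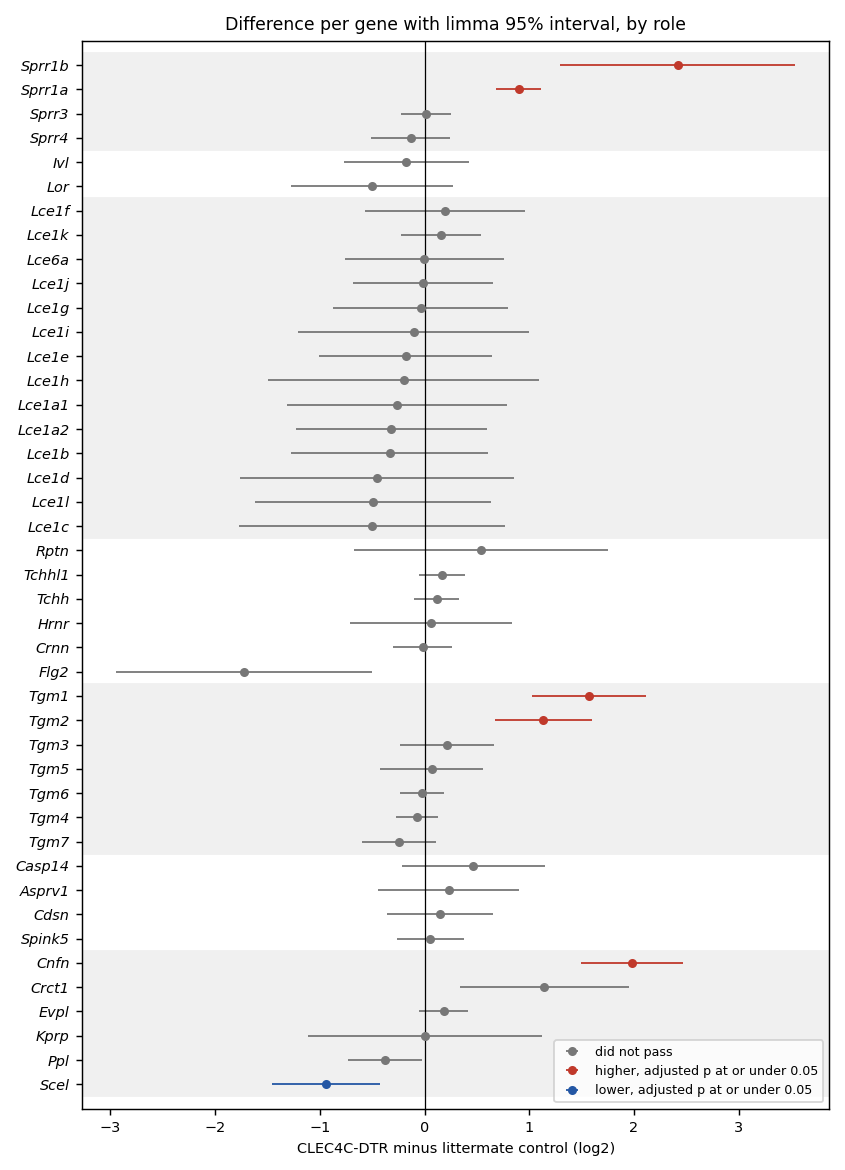
Difference of CLEC4C-DTR minus littermate control (log2, x axis) for each of the 43 genes, with limma's 95% interval, grouped by role in alternating bands. The 5 genes that rose are red, the 1 that fell is blue and those that did not pass are grey. The Lce1 intervals are wide, whereas those of Sprr3, Crnn, Tgm4 and Tgm6 are narrow around 0.

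Among proteins associated with the envelope, Cnfn rose and Scel fell. Cnfn encodes cornifelin, a small protein of the envelope. It lay at 9.14, 9.86 and 9.90 in CLEC4C-DTR replicates 1 to 3 and at 7.92, 7.54 and 7.50 in controls. The lowest transgenic value exceeded the highest control by more than the spread within either group, and the gene was 3.94-fold higher (log2 1.98, SE 0.21, limma adjusted p = 0.00937). Cnfn passed with each array left out.
Scel encodes sciellin, an envelope precursor. It lay at 9.33, 8.39 and 9.08 against 9.96, 9.65 and 10.01, so that all CLEC4C-DTR values were below all control values. The difference was -0.94 (SE 0.22, limma adjusted p = 0.0407), just short of 2-fold. The call held without CLEC4C-DTR replicate 1. It was lost without CLEC4C-DTR replicates 2 or 3 (adjusted p = 0.0544 and 0.0940) and without littermate control replicates 1, 2 or 3 (0.120, 0.0577 and 0.149).

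Crct1, a small cysteine-rich protein encoded in the epidermal differentiation complex, did not pass although its groups were apart. It lay at 10.18, 10.11 and 10.48 in CLEC4C-DTR mice and at 9.57, 8.17 and 9.60 in controls. The control values spread far more than the transgenic ones, with replicate 2 far below the others. The difference was 1.14 (SE 0.35, limma adjusted p = 0.0796). Without littermate control replicate 2 it was smaller, 0.67, and passed (adjusted p = 0.0352). Groups did not overlap in 6 of the 43 genes in the higher direction, against 14.0% of all genes, and in 1 in the lower direction, against 19.0% of all genes.

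The plakins Evpl and Ppl, which form the scaffold beneath the membrane, did not pass. Evpl (envoplakin) lay at 7.53, 7.24 and 7.40 against 7.28, 7.25 and 7.10, a difference of 0.18 (95% interval -0.05 to 0.42). Ppl (periplakin) lay at 9.26, 8.70 and 9.12 against 9.47, 9.21 and 9.52, a difference of -0.38 (95% interval -0.73 to -0.02, limma adjusted p = 0.162). In each, values of the groups overlapped. Kprp, a keratinocyte proline-rich protein, differed by 0.0029, with an interval of -1.11 to 1.12 that leaves a 2-fold change in either direction possible.

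Loricrin and involucrin, the glycine-rich and glutamine-rich precursors of normal epidermis, were not shown to change. Lor lay at 9.93, 8.48 and 9.45 in CLEC4C-DTR replicates 1 to 3 and at 9.94, 9.42 and 9.99 in controls. The difference of -0.50 (95% interval -1.27 to 0.27, limma adjusted p = 0.382) came with 1 low value, CLEC4C-DTR replicate 2. Without that array it was -0.10, but replicate 2 was the lowest of the controls too and was kept in that fit. In Lor, replicate 2 minus the mean of replicates 1 and 3 was -1.21 in CLEC4C-DTR mice and -0.55 in controls. Ivl lay at 7.34, 6.80 and 7.97 against 7.51, 7.41 and 7.72, with overlap and a difference of -0.17 (95% interval -0.77 to 0.42).

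The 13 Lce1 genes, late precursors made in the outermost living layers, and Lce6a gave no call. Differences of the Lce1 genes ran from -0.50 (Lce1c) to 0.20 (Lce1f) with a median of -0.20, and 11 of the 13 were below 0. Limma's adjusted p ran from 0.567 to 0.979, and 0 of the 13 had an unadjusted p under 0.05. Lce1c lay at 9.45, 7.59 and 9.13 in CLEC4C-DTR mice and at 9.65, 8.19 and 9.83 in controls, so that its groups overlapped. Its 95% interval, -1.77 to 0.77, leaves a 2-fold lower level possible. Lce1k, above 0 with a difference of 0.16, had the narrower interval of -0.22 to 0.54. Their limma standard errors were large, with a median of 0.41 against 0.10 over all genes. Members of the family resemble each other in sequence, so a probe may read several of them and their values are not independent.
The spread within groups had a common form. In all 13 Lce1 genes the lowest value was that of replicate 2, both among CLEC4C-DTR mice and among controls, as it was in 14.4% of all genes. The mean of the 13 was 8.45, 7.10 and 8.34 in CLEC4C-DTR replicates 1, 2 and 3 and 8.38, 7.43 and 8.67 in the controls. Both arrays numbered 2 were thus low, and the other 4 were close together whatever the genotype.
Lce1d, as an example, lay at 9.17, 7.27 and 8.98 against 9.22, 7.92 and 9.64. In it replicate 2 minus the mean of replicates 1 and 3 was -1.81 in CLEC4C-DTR mice and -1.51 in controls, while the groups differed by -0.45 (SE 0.57). The smallest such gap among the CLEC4C-DTR mice was that of Lce1k (-0.36). Lce6a lay at 6.89, 6.32 and 7.55 against 7.23, 6.36 and 7.17, with a difference of -0.0013.

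**Figure D3:**
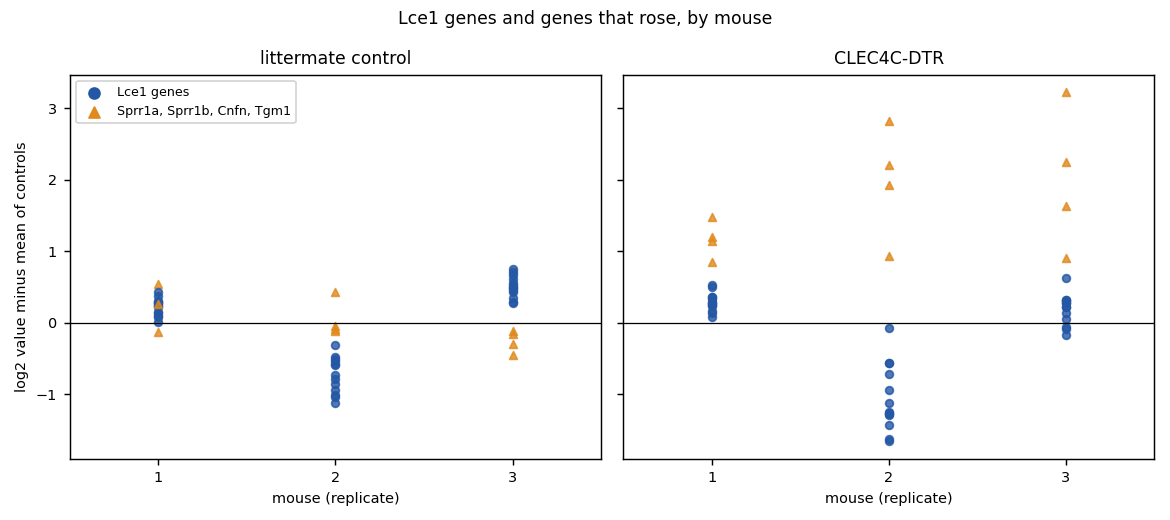
Log2 value minus the mean of the 3 controls (y axis) by mouse (x axis) for the 13 Lce1 genes (blue circles) and for Sprr1a, Sprr1b, Cnfn and Tgm1 (orange triangles), in controls (left) and CLEC4C-DTR mice (right). Lce1 genes are lowest in replicate 2 of both groups. The other 4 genes were picked from the 5 that rose, so their high values in CLEC4C-DTR mice follow from that choice.

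The low values of replicate 2 reached beyond the Lce1 family. Of the 30 members outside Lce1, 16 (53.3%) had their lowest value in replicate 2 in both groups, against 14.4% of all genes. With the Lce1 genes included it was 29 of the 43 (67.4%). They included Lor, Ivl, Flg2, Hrnr, Kprp, Casp14, Cdsn, Asprv1 and Scel. None of the 5 genes that rose was among them, nor was any transglutaminase. A low replicate 2 widens the spread within groups and makes a call less likely, so the absence of genes that rose is not independent of the calling. Markers of the basal keratinocyte layer had means of 10.13, 9.82 and 9.95 in CLEC4C-DTR replicates 1 to 3 and of 10.40, 10.31 and 10.35 in controls, so the gap of replicate 2 in those markers was much smaller than in Lce1 genes. The labels do not say what, if anything, arrays of one number share.

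S100-fused proteins aggregate keratin filaments or reinforce the cornified layer, and none of the 6 measured was called. Flg2 (filaggrin 2) showed the largest difference among them. It lay at 8.26, 6.12 and 7.28 in CLEC4C-DTR replicates 1 to 3 and at 9.22, 8.14 and 9.47 in controls. CLEC4C-DTR replicate 1 lay above the lowest control, so the groups overlapped, and the difference was -1.72 (SE 0.53, 95% interval -2.94 to -0.50, limma adjusted p = 0.0803). Without CLEC4C-DTR replicate 1 it was -2.24 and passed (adjusted p = 0.0187).
Hrnr (hornerin) lay at 8.74, 7.95 and 9.47 against 8.76, 8.35 and 8.86, a difference of 0.06 (95% interval -0.71 to 0.84). Rptn (repetin) was near 4.2 to 4.8 on 5 of the 6 arrays and at 6.51 in CLEC4C-DTR replicate 3, so its difference of 0.54 (SE 0.53) rests on that mouse. Without it the difference was -0.17. Casp14 had its highest value, 7.45, in the same mouse. Crnn (cornulin) differed by -0.02 (95% interval -0.30 to 0.27).
Tchh (trichohyalin), a protein of the inner root sheath of hair, and Tchhl1 differed by 0.12 and 0.17. Their 95% intervals were -0.10 to 0.33 and -0.06 to 0.39. None of 9 inner root sheath markers was called by limma (2 had an unadjusted p under 0.05, and Gata3 fell without CLEC4C-DTR replicate 1). Their mean was 5.10 to 5.23 in CLEC4C-DTR mice and 5.34 to 5.47 in controls.

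Proteases and their partners that mature or shed the cornified layer were not called. Casp14, the caspase that helps break down filaggrin, lay at 6.53, 6.12 and 7.45 against 6.35, 6.03 and 6.33, a difference of 0.46 (95% interval -0.22 to 1.15). Asprv1, the aspartic protease that cuts profilaggrin, lay at 9.22, 9.16 and 9.75 against 9.50, 8.44 and 9.49, a difference of 0.23 (95% interval -0.44 to 0.90). Cdsn (corneodesmosin), the adhesive protein of corneodesmosomes, differed by 0.15 (95% interval -0.36 to 0.65). Spink5 encodes LEKTI, an inhibitor of the kallikreins that cleave corneodesmosin. Its values were 10.32, 10.26 and 10.34 against 10.43, 9.91 and 10.42, and the difference was 0.06 (95% interval -0.27 to 0.38).

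All 43 genes were found in the RefSeq gene table (GRCm38.p6), 28 of them on chromosome 3 in the epidermal differentiation complex. Of these 28, 2 rose (Sprr1a and Sprr1b) and 0 fell, and of the 15 elsewhere in the genome 3 rose and 1 fell, against 5.01% of all genes rising and 4.31% falling. The difference between the locations was not tested. Sprr1b and Sprr1a follow the Sprr2 genes in chromosome order, with Sprr3 between them. Sprr3 was not called, unlike the genes on either side. Crct1 comes directly after the Lce3 genes.
Between these stretches lay Sprr4, Ivl, Lce6a, the Lce1 genes and Kprp, with no call among them. Single-symbol Sprr2 genes rose in 8 of 9 cases with a median difference of 3.24, and Lce3 genes in 2 of 5 with a median of 2.31. Against these medians Sprr1b (2.42) and Sprr1a (0.90) had differences of the same sign, and the Lce1 median was -0.20. The difference between families was not tested, and members of each family resemble each other.

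**Figure D4:**
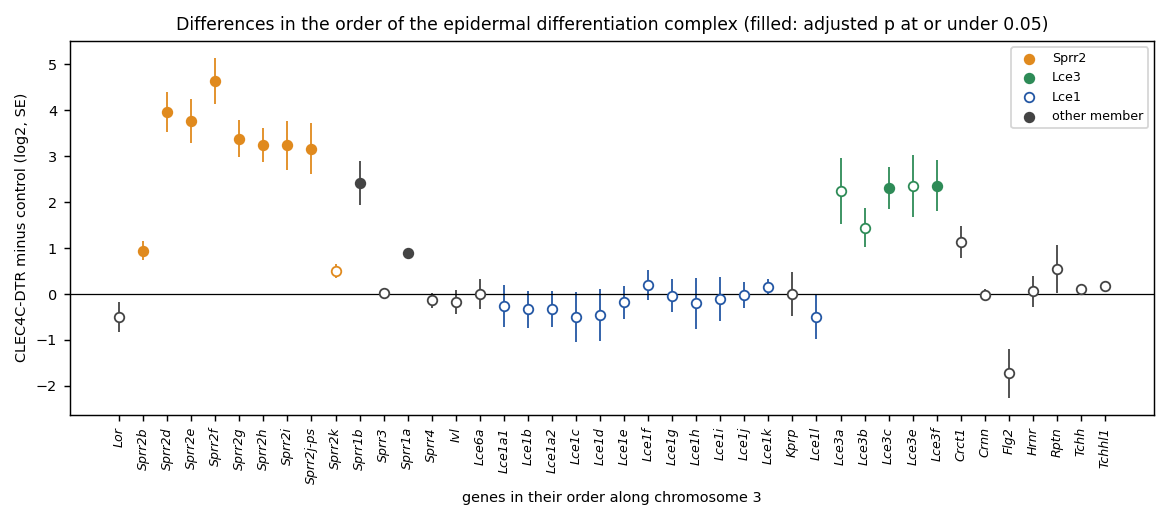
Difference of CLEC4C-DTR minus control (log2, y axis, bars are limma's SE) for 42 measured genes of the epidermal differentiation complex in their order along chromosome 3 (x axis, ranks, not distance). Filled points have an adjusted p at or under 0.05. High points lie in the Sprr2 to Sprr1a stretch and at Lce3 to Crct1, with the Lce1 genes near 0 between them.

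Other genes of cornification were read from lists, whose calls stand against 5.01% of all genes rising and 4.31% falling. When probe sets that the annotation does not list were tested too, no gene of the 5 cornification lists passed in limma (unadjusted p under 0.05 in 4 filaggrin processing, 10 lipid envelope, 5 suprabasal, 2 desmosome and 8 transcription factor genes). None passed with variances not moderated across genes either (4, 8, 2, 2 and 3 in the same order). Of 13 measured enzymes and inhibitors of filaggrin processing and shedding, 3 rose and 0 fell. Klk7, the chymotryptic kallikrein of shedding, was higher by 0.92 (SE 0.13, limma adjusted p = 0.0140). The proprotein convertase Furin rose by 1.04 and Blmh (bleomycin hydrolase, which breaks down filaggrin peptides) by 0.80. All were lost in the fits that left out replicate 3 of either group (0 called by limma, 4 with unadjusted p under 0.05). Klk7 alone passed without littermate control replicate 1, and Blmh was lost when replicate 2 of either group was left out. The protease inhibitor Cst6 fell as well with CLEC4C-DTR replicate 1 left out.

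Of 16 measured genes for the making and turnover of the lipid envelope attached to the protein envelope, 5 rose and 1 fell. The median difference was 0.24. The ceramide synthase Cers3 rose by 1.18 (SE 0.15, limma adjusted p = 0.0107), Elovl1, an elongase of long-chain fatty acids, by 0.48, and Ugcg, the glucosylceramide synthase, by 0.74. Alox12b, the lipoxygenase whose product is needed to link ceramides to the envelope, rose by 1.02, and so did Sdr9c7, by 0.93, a dehydrogenase of the same route. The ceramidase Acer1 fell by 1.01.
With single arrays left out the rises numbered 1 without CLEC4C-DTR replicate 2 or 3, 2 without littermate control replicate 1, 3 without its replicate 2 and 7 without CLEC4C-DTR replicate 1. Leaving out littermate control replicate 3 gave 0 (limma, 10 with unadjusted p under 0.05). Acer1 passed only without CLEC4C-DTR replicates 1 or 2.

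Suprabasal keratins and secreted differentiation proteins (14 measured) gave 2 rises, Lypd3 by 1.09, a surface protein of differentiating keratinocytes, and Aqp3, a water and glycerol channel, by 0.79. The median of that list was -0.22. Krt10 and Krt2, keratins of the spinous and granular layers, differed by -0.46 (adjusted p = 0.120) and -0.60 (adjusted p = 0.121) in the limma fit. Krt1, of the same list, went the other way, by 0.46 (limma adjusted p = 0.402), with overlap of the groups, unlike Krt10 and Krt2. Krt1 lay at 10.66, 10.51 and 11.88 against 10.67, 10.43 and 10.57, so its difference rests on CLEC4C-DTR replicate 3. Both rises were lost in the fits lacking replicate 3 of either group (0 called by limma, 7 and 3 with unadjusted p under 0.05). Aqp3 was also lost without CLEC4C-DTR replicate 2 and without littermate control replicate 1. Klk8 rose and Krt77 fell in addition when CLEC4C-DTR replicate 1 was left out.

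None of 8 desmosome and corneodesmosome genes was called by limma, and 2 had an unadjusted p under 0.05. The desmogleins and desmocollins of deeper layers with the smallest p were Dsg3, which differed by 0.39 (adjusted p = 0.0528), and Dsc3, by -0.37 (adjusted p = 0.0561). Both passed among genes above the median level, with an intensity trend and with array weights. Dsg3 also passed without littermate control replicate 2 and with each array centred on its median. Dsc3 also passed without CLEC4C-DTR replicate 1 and after further quantile normalisation.

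Among 17 transcription factors of keratinocyte differentiation, Prdm1 (Blimp1, a repressor needed for the last steps of cornification) rose by 1.16 (SE 0.18, limma adjusted p = 0.0150). Ahr, the receptor for aryl hydrocarbons, fell by 0.52 and the nuclear receptor Rora by 0.84. The other 14 did not pass, among them Klf4, a factor needed for barrier formation (difference 0.03), and Grhl3 (difference 0.56, adjusted p = 0.127). None of the 17 was called by limma with CLEC4C-DTR replicate 3, control 1 or control 3 left out (8, 6 and 4 with unadjusted p under 0.05). The list gave 3 rises and 4 falls without CLEC4C-DTR replicate 1, and Prdm1 alone without CLEC4C-DTR replicate 2.

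Markers of the other cells of the ear give the setting of these values. Krt14 and Krt5, which define basal keratinocytes, had mean log2 values of 12.1 to 12.3 in the groups and did not pass, while Krt15 fell by 1.59. Of 7 basal markers only Krt15 was called, and the list mean of every CLEC4C-DTR mouse was below that of every control. Of 6 sebocyte markers Elovl3 and Scd1 fell, by 1.09 and 0.57. Of 6 fibroblast markers only Pdgfra was called, higher by 0.53, while 4 had differences below 0 and the median was -0.23. None of 10 hair shaft markers was called by limma, and 0 had an unadjusted p under 0.05, although Msx2 fell without littermate control replicate 2. Krt15, Elovl3, Scd1, Pdgfra and Pecam1 did not pass with CLEC4C-DTR replicate 3, control 1 or control 3 left out. With CLEC4C-DTR replicate 2 left out, Scd1, Pdgfra and Pecam1 were lost, and without littermate control replicate 2, Elovl3, Scd1 and Pecam1. Basal falls numbered 3 without CLEC4C-DTR replicate 1. When unlisted probe sets were tested too, Cd68 was the only cell type marker that passed, and with variances not moderated limma called 0 of them (8 leukocyte markers had an unadjusted p under 0.05). The part of these shifts in the values of the cornified envelope genes was not tested.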

How the data were processed

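RMA, which corrects background, equalises the arrays' distributions and summarises probes, is named in the series' design text. The deposited values are on a log2 scale, as their range shows. The software behind RMA is not named in the sources used here. RMA sets arrays to nearly one distribution and compresses differences of dim genes. No background measure was used, so no gene could be called absent. Of 35556 probe sets, 21789 have 1 gene symbol in the platform annotation, 1621 several, and 12146 are not listed. Symbols are the annotation's. RefSeq (GRCm38.p6) matched 19856 of 19938 genes by Entrez identifier.

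Groups were compared with limma 3.58.1 (lmFit, eBayes, R 4.3.3), two-sided, with no covariate. With 3 mice a group, an exact permutation test of 1 gene cannot go below 0.1. The limma step was tested on simulated data. Members and lists were chosen with earlier results of these data known. All members were named, and of each list up to 4 called genes with the smallest p, or else 2. Any other gene was named after its values were seen. Figures were drawn with matplotlib 3.10.9.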

Additional observations from a re-analysis of the deposited data

How the results depend on the processing

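With 3 mice a group, calls depended on single arrays. The members called were the same 6 after median centring, further quantile normalisation, removal of dim genes, a trended or robust prior, averaging of probe sets and adding probe sets with several symbols. Falls numbered 2 with array weights (Flg2 added). At least a 2-fold difference was met by 4 of the 5 rises and 0 of the falls, and by 408 of the 1858 calls over all genes. With each array left out, rises ran from 2 to 5, falls from 0 to 2 and calls over all genes from 67 to 2617. With the replicate number as a block, 6 rose (Crct1 added, limma adjusted p = 0.0298), 3 fell (Flg2 and Lce1c added, 0.00842 and 0.0469) and 2084 genes were called, and Dsg3 passed too. Deviations from the group means correlated between same-numbered arrays at -0.06, 0.22 and 0.10 over all genes and at 0.15, 0.78 and 0.30 over the members. Since the first is not over 0.1 and CLEC4C-DTR replicate 1 correlated more with littermate control replicate 3 (0.18 over all genes, 0.68 over the members), the numbers were not taken to pair the mice. The remaining 3 alternatives were chosen after seeing the data. When unlisted probe sets were added to the test, 2 members rose (Cnfn and Sprr1a), 0 fell (8 at an unadjusted p under 0.05) and 98 genes passed in all. With variances not moderated across genes limma's fit called 0 members (6 at an unadjusted p under 0.05) and 0 genes. Without replicate 2 of both groups the calls over all genes numbered 549, with Crct1 called in place of Sprr1b. No member called in the comparison changed direction in any fit.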
